A study of Mus musculus with 6 samples.

Results

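The zinc finger protein (Zfp) genes examined here are the 228 genes whose symbol begins with Zfp and a number and whose mean level over 6 tumors was at least 5 CPM, that is, counts per 1000000 counts of the same tumor. The table holds 393 such symbols among 23557 genes. Of the remaining symbols, 108 averaged between 0.5 and under 5 CPM and 57 averaged under 0.5 CPM, including 8 at 0 in every tumor. The members were selected on their level averaged over both groups. The difference between groups was not part of the rule, although 9 members averaged under 5 CPM in the NaCl tumors and 2 in the H89 tumors.

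The study used tumors of CT26, a colon carcinoma line derived from the BALB/c strain, grown in female BALB/c mice aged 7 weeks. Every mouse received 500000 CT26 cells under the skin. From day 6, 3 mice were given H89 at 10 mg/kg in NaCl by intraperitoneal injection 2 times a week and 3 mice were given NaCl alone. H89 is a multikinase inhibitor best known for blocking protein kinase A (PKA), and the whole tumors were taken on day 14 for sequencing of total RNA. Each tumor is 1 sample, and all 6 share the same line and host strain.

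Most Zfp genes encode proteins with tandem C2H2 zinc fingers, small folds held by zinc in which each finger reads a short stretch of DNA. The largest subgroup also carries a KRAB domain, which recruits the corepressor Trim28 (KAP1) and through it the histone methyltransferase Setdb1, and is known for silencing retrotransposons and protecting imprinted loci. The symbol also covers unrelated proteins, among them the CCCH-type Zfp36 family that destroys mRNAs with AU-rich elements, and factors of ribosome quality control and mitosis.

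Total estimated counts lay between 27067349 and 31958793 per tumor, and the lowest estimated count of any member in any tumor was 87. The mitochondrially encoded share of counts was 4.89%, 6.16% and 5.06% in NaCl tumors 1 to 3 and 11.1%, 10.0% and 4.94% in H89 tumors 1 to 3, so the groups overlapped. The summed level of 10 T cell markers ran from 17.3 to 38.6 CPM in NaCl and from 35.8 to 90.8 CPM in H89 tumors, and that of 8 fibroblast markers from 2547 to 2719 CPM and from 3104 to 3635 CPM. Markers of colon epithelium summed to 115 to 128 CPM in NaCl and 87.6 to 103 CPM in H89 tumors, 4 of the 11 averaged at least 1 CPM, and Cdx1, a defining intestinal factor, averaged under 0.1 CPM. These are bulk samples, in which fewer cells of a type and less RNA per cell cannot be told apart. The part of cell makeup and of the mitochondrial share in the results below was not tested.

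As a group, the members leaned toward higher levels in H89 tumors by small amounts. The fitted log2 fold change of H89 against NaCl was positive for 158 of the 228 members (69.3%) and negative for 70, where 50.6% of all 13118 genes tested were positive. Under a correction for GC content given below, the members' median turned negative, at -0.01, beside -0.07 over all genes tested. In the reported fit the median was 0.13, beside 0.004 over all genes tested and -0.03 over the 10464 genes with at least 5 CPM. Values ran from -0.47 to 0.88, so no member changed by more than 1 on the log2 scale, a size that 3.19% of all genes tested exceeded. The 15 members beyond 0.5 in size were on the positive side, but 4 of them averaged under 5 CPM in NaCl and passed the rule only through their H89 tumors. Among the 217 members with at least 5 CPM in both groups, 149 were positive and the median was 0.11.

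Only 1 member passed the test. By edgeR's quasi-likelihood test with Benjamini-Hochberg adjustment over all genes tested, 1 member rose in H89 tumors, against a background of 0.861% of genes called higher, and 0 members fell, against 0.724% called lower. An unadjusted p under 0.05 was reached by 45 members on the higher side (19.7%, background 13.1%) and 17 on the lower side (7.46%, background 11.9%). DESeq2 with the same adjustment called 15 members higher and 9 lower, against 3.37% and 4.02% of the 18837 genes it was run on. These 18837 include genes of very low count, and any gene without an adjusted p counts as not called. The DESeq2 background is therefore not matched in level to the members.

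Counting members whose 3 H89 values all lay on one side of the 3 NaCl values gave 78 above (34.2%) and 17 below (7.46%) on the CPM scale, where 20.5% and 10.0% of all genes tested did so. After TMM scaling between tumors, the scaling used in the fit, the members' counts were 59 above and 23 below, beside 15.2% and 15.5% of all genes. The mean of the members' log2(CPM + 0.5), centred on each gene, was -0.17, -0.06 and -0.03 in NaCl tumors 1 to 3 and 0.02, 0.13 and 0.12 in H89 tumors 1 to 3. After TMM scaling it was -0.11, -0.05 and -0.006 in NaCl tumors 1 to 3 and 0.04, 0.09 and 0.03 in H89 tumors 1 to 3. NaCl tumor 1 was thus the lowest of the 6, and without it the members' median log2 fold change was 0.09.

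**Figure D1:**
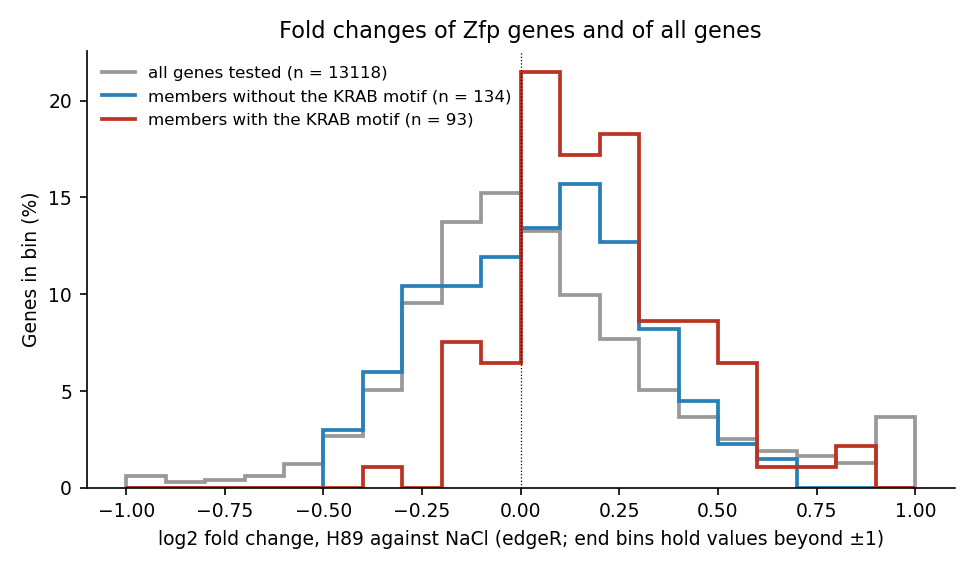
Share of genes (vertical axis, percent) in bins of the fitted log2 fold change of H89 against NaCl (horizontal axis) for 93 members with a KRAB motif, 134 members without one and all 13118 genes tested. The curve of the KRAB group lies mostly to the right of zero (median 0.18), and no member lies beyond 1 in size.

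Zfp488, a nuclear repressor that works with Olig2 in the formation of oligodendrocytes, was the member that passed. It lies on chromosome 14 from 33967070 to 33978764 on the minus strand (GENCODE M21 on GRCm38) and no other annotated gene overlaps it. Its level was 27.8, 28.7 and 26.8 CPM in the NaCl tumors and 51.1, 44.2 and 44.4 CPM in the H89 tumors. The groups did not overlap, and H89 tumor 1 was the highest. The means were 27.8 ± 0.964 (SD, n = 3) and 46.6 ± 3.96 (SD, n = 3), and edgeR gave a log2 fold change of 0.68 with a standard error (SE) of 0.11 and a Benjamini-Hochberg adjusted p of 0.0407. The exact two-sided permutation test of the 3 against 3 tumors gave p = 0.1, the smallest it can give. The call was lost whenever any 1 tumor was left out, while the log2 fold change stayed between 0.57 and 0.74. The edgeR adjusted p then lay between 0.0663 (without H89 tumor 1) and 0.142 (without NaCl tumor 3). Few genes of any kind passed in those fits, 0 to 11 of all 13118 on the higher side and 0 to 2 on the lower. Unlike most members with large positive values, Zfp488 has no KRAB motif, and 2 C2H2 fingers were found in its coding sequence.

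The other members with the largest positive fold changes were mostly KRAB genes of low CPM, and they did not pass edgeR's adjusted test. DESeq2 called Zfp970, Zfp966 and Zfp945 higher (Benjamini-Hochberg adjusted p of 0.0021, 0.0272 and 0.0192). It also called Zfp182, as given below, but not Zfp445 (0.0859). Zfp970, a KRAB gene with 14 fingers on chromosome 2 (177464733 to 177478129), stood at 5.31, 6.69 and 4.36 CPM in NaCl and 9.34, 12.3 and 10.1 CPM in H89 tumors. Zfp966, a KRAB gene with 11 fingers on the same chromosome (175918881 to 175931100), stood at 3.14, 5.58 and 5.67 CPM and at 6.75, 11.3 and 9.31 CPM, and it is a member only through its H89 tumors. In both genes the groups did not overlap, and their log2 fold changes were 0.88 (SE 0.19) and 0.86 (SE 0.26), with edgeR Benjamini-Hochberg adjusted p of 0.0620 and 0.108. Zfp182, a KRAB gene with 14 fingers on chromosome X (21028939 to 21062316), came closest to the threshold after Zfp488. Its levels were 5.50, 6.35 and 6.03 CPM in NaCl and 10.4, 10.6 and 9.63 CPM in H89 tumors, with a log2 fold change of 0.71 (SE 0.14) and an edgeR adjusted p of 0.0504. The groups did not overlap. The adjusted p of Zfp182 ran from 0.0412 to 0.0747 over the other edgeR settings with all 6 tumors and no block, the lowest with genes of at least 5 CPM and the highest with the GC correction, and was 0.0890 with quantile normalization and limma, 0.00239 with DESeq2, 0.0717 with the replicate block and 0.0790 to 0.149 with 1 tumor left out.

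Zfp445 (chromosome 9, 122844529 to 122866006), known for maintaining imprinted methylation, carries a KRAB domain that the motif used here did not find. It stood at 6.12, 9.35 and 10.6 CPM in NaCl and 9.42, 16.2 and 18.2 CPM in H89 tumors. Here the groups overlapped, since H89 tumor 1 lay within the NaCl range, and the log2 fold change of 0.67 (SE 0.26) reached 0.169 as edgeR's Benjamini-Hochberg adjusted p. The sixth of these members, Zfp945, belongs to the chromosome 17 cluster described below.

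**Figure D2:**
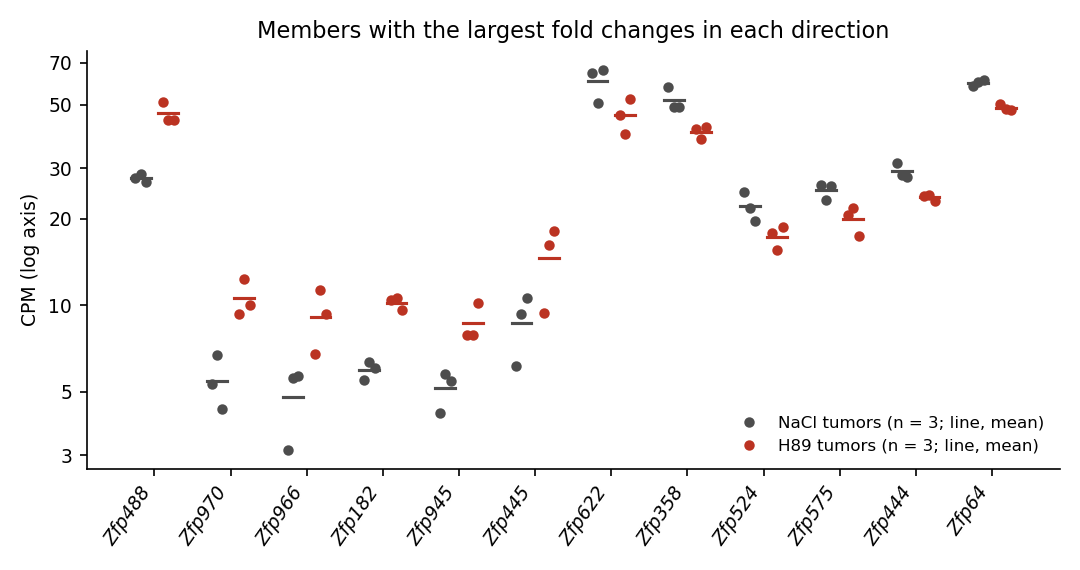
Level in CPM (vertical log axis) of the 6 members with the largest positive and the 6 with the largest negative log2 fold changes among members with an unadjusted p under 0.05, with 1 point per tumor, 3 NaCl and 3 H89 tumors per gene, and a line at each group mean. Points of the groups overlap for Zfp445 and Zfp622, and edgeR's adjusted test called only Zfp488.

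On the other side, the 6 most negative fold changes were smaller in size, and the transcripts were richer in GC (51.2% to 58.9%, beside 35.5% to 48.2% for the 6 most positive). An unadjusted p under 0.05 was part of the rule that named these genes. Zfp622 (chromosome 15, 25984366 to 25998481), a factor needed for the last steps in the maturation of the large ribosomal subunit, had the largest, with 64.6, 50.7 and 66.1 CPM in NaCl and 46.1, 39.4 and 52.3 CPM in H89 tumors. The groups overlapped, since H89 tumor 3 lay above NaCl tumor 2, and the log2 fold change was -0.47 (SE 0.14, edgeR adjusted p = 0.105). Zfp64 (chromosome 2, 168893331 to 168955587), a transcription factor known to act on the Mll gene in leukaemia, was the steadiest of the 6. It stood at 58.1, 59.8 and 60.8 CPM in NaCl and 50.1, 48.4 and 47.9 CPM in H89 tumors, and the groups did not overlap. Its log2 fold change was -0.35 (SE 0.08), with an edgeR Benjamini-Hochberg adjusted p of 0.0664 and an exact permutation p of 0.1. DESeq2 called Zfp64 lower, with a Benjamini-Hochberg adjusted p of 0.00664.

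Zfp358 (9 fingers), Zfp524 (4), Zfp575 (6) and Zfp444 (4) complete this group, and none has the KRAB motif. Zfp358 lies on chromosome 8 (3493138 to 3497208), and the other 3 lie on chromosome 7 (5014415 to 5018488, 24583838 to 24587641 and 6172226 to 6193811). Zfp358 stood at 57.8, 49.0 and 49.2 CPM in NaCl and 41.0, 37.8 and 41.6 CPM in H89 tumors. Zfp444 stood at 31.3, 28.5 and 28.1 CPM and at 24.1, 24.1 and 23.1 CPM. The NaCl tumors of Zfp524 ran from 19.7 to 24.9 CPM and its H89 tumors from 15.6 to 18.7 CPM, and those of Zfp575 from 23.2 to 26.2 CPM and from 17.4 to 21.8 CPM. In all 4 the H89 values lay below all NaCl values, with log2 fold changes from -0.44 (Zfp358) to -0.37 (Zfp444) and edgeR adjusted p between 0.0729 and 0.122. DESeq2 called Zfp358, Zfp524 and Zfp444 lower (Benjamini-Hochberg adjusted p of 0.00725, 0.0459 and 0.0270) but not Zfp575 (0.0543). Zfp524 shares its position with Fiz1 on the opposite strand and Zfp575 with Ethe1, and whether the counting used strand is not given in the sources used here.

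The members were split by whether a KRAB motif was found in the translated GENCODE coding sequence. The motif missed the KRAB domain of Zfp445, so the side without it is not free of KRAB genes. How many other domains it missed was not tested. In these comparisons, KRAB members are those with the motif. With the motif, 79 of 93 members had a positive log2 fold change (median 0.18), 22 (23.7%) reached an unadjusted p under 0.05 on the higher side and 1 (1.08%) on the lower side, where 13.1% and 11.9% of all genes tested did. Without it, 78 of 134 were positive (median 0.06), and 23 (17.2%) and 16 (11.9%) reached that p on the higher and lower side. The centred mean of the KRAB group was -0.28, -0.08 and -0.03 in NaCl tumors 1 to 3 and 0.05, 0.19 and 0.14 in H89 tumors 1 to 3. After TMM scaling it was -0.22, -0.06 and -0.007 in NaCl tumors 1 to 3 and 0.07, 0.15 and 0.06 in H89 tumors 1 to 3. Every H89 tumor was thus above every NaCl tumor in this mean on both scales. Without NaCl tumor 1 the median log2 fold change of the KRAB group was 0.10 and that of the other members 0.08. The number of fingers ran the same way, from a median of -0.05 for 8 members without a C2H2 finger and 0.01 for 39 members with 1 to 4, through 0.15 for 68 with 5 to 9 and 0.17 for 70 with 10 to 14, to 0.19 for 42 with 15 or more. After the GC correction described below these medians were -0.16, -0.05, 0.02, 0.002 and -0.02, which did not keep that order.

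GC content and level both moved with all of this. Spearman's rho of log2 fold change with mean CPM was -0.37 across 227 members. The median level was 11.7 CPM in KRAB members and 27.4 CPM in the other members. Along the finger groups, in the order given above, it was 53.6, 32.0, 21.5, 12.8 and 13.1 CPM. The part of level in these differences was not tested. The transcripts of KRAB members had a median GC content of 41.3% and those of the other members 49.9%, beside 50.4% over all genes tested. Among members with at most 40% GC, 44 of 46 had a positive log2 fold change, with a median of 0.23. Over 40% and up to 45%, 44 of 53 did (median 0.21), and between 45% and 50% it was 31 of 46 (median 0.09). From 50% to 55%, 25 of 38 were positive (median 0.07), and above 55% only 13 of 44 (median -0.15). All genes tested showed the same order in these GC ranges, with medians of 0.15, 0.10, 0.03, -0.04 and -0.09. Across the 227 annotated members Spearman's rho of log2 fold change with GC content was -0.48, and across 12920 genes tested it was -0.24. Genes are not independent replicates, and the same 6 libraries lie behind every point. Within a GC range the KRAB and other members had respective medians of 0.22 and 0.25 at up to 40% GC, 0.21 and 0.17 up to 45%, 0.15 and 0.06 up to 50%, 0.05 and 0.09 up to 55%, and -0.16 and -0.14 above.

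**Figure D3:**
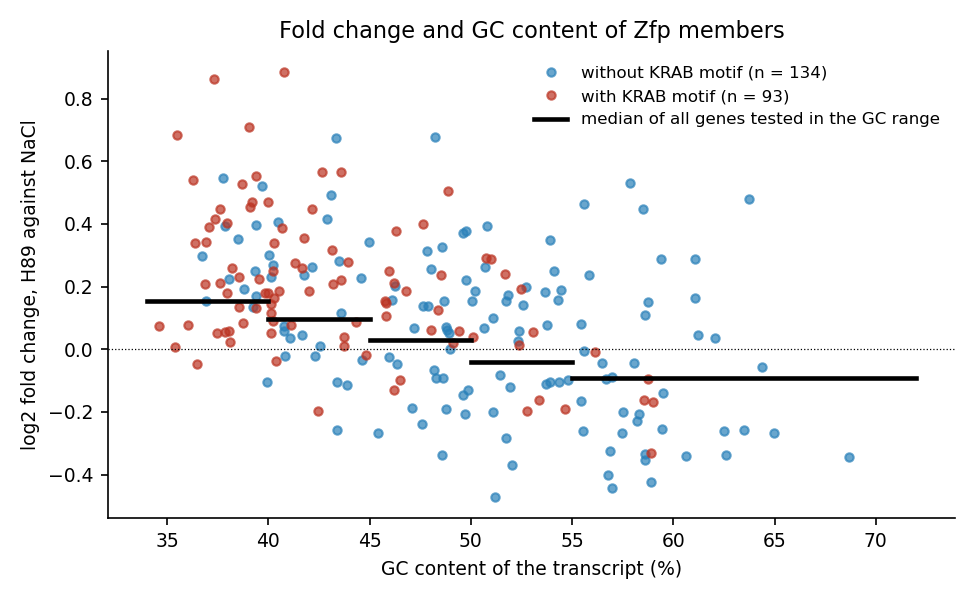
Fitted log2 fold change of H89 against NaCl (vertical axis) against the GC content of the transcript in percent (horizontal axis), with 1 point per annotated member, coloured by the presence of a KRAB motif, and black lines at the median of all genes tested in each GC range. Members with at most 40% GC lie mostly above zero (median 0.23) and those above 55% mostly below (median -0.15).

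When each tumor was corrected for GC content and transcript length, the members' median no longer lay above zero. The median log2 fold change became -0.01, with 109 of 228 members (47.8%) positive. The median of all genes tested was -0.07, with 5248 of 13118 positive, so the corrected fit was not centred on zero. In that fit the KRAB median was 0.01 and that of the other members -0.03. The corrected edgeR test called 5 members higher and 5 lower after Benjamini-Hochberg adjustment, beside 1.49% and 4.22% of all genes, and 25 and 31 members had an unadjusted p under 0.05, beside 10.0% and 20.9%. Zfp488 kept its call there, with a log2 fold change of 0.58 and an edgeR adjusted p of 0.0434, and Zfp358, Zfp444, Zfp148, Zfp365 and Zfp64 passed on the lower side. The others on the higher side were Zfp512b, Zfp276, Zfp692 and Zfp579, and those of the 10 outside the rule for named genes were picked after their values were seen. Quantile normalization with limma left a median of 0.05 with 139 members positive.

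**Figure D4:**
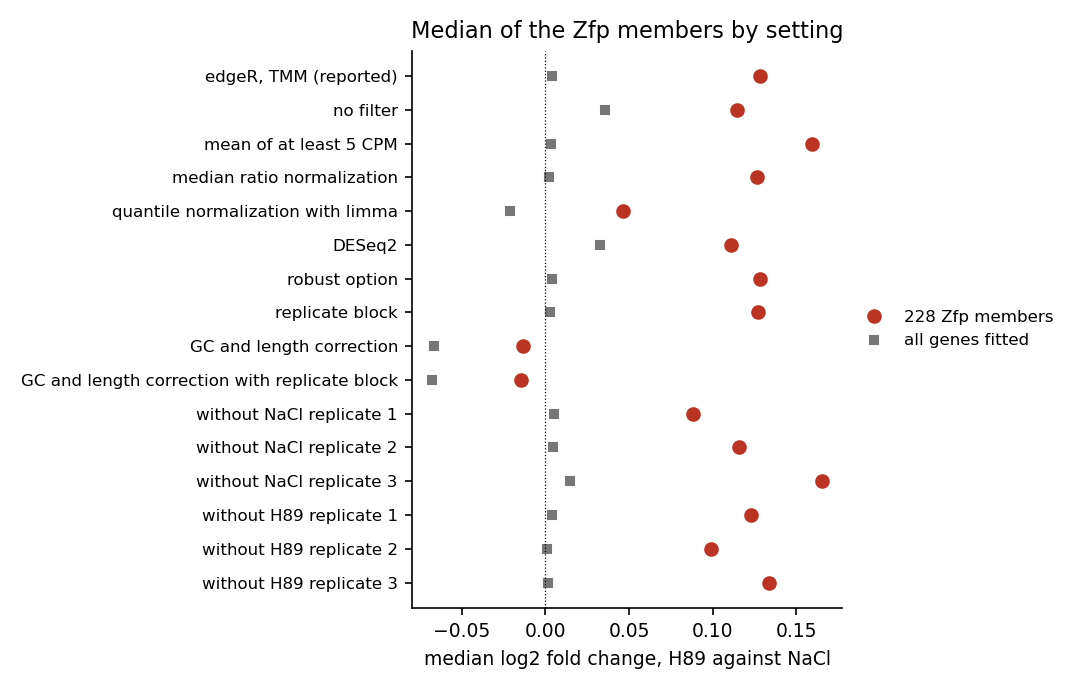
Median log2 fold change of H89 against NaCl (horizontal axis) over the 228 members (circles) and over all genes fitted (squares) in the reported edgeR fit and 15 alternatives (vertical axis). The members' median was 0.13 as reported, 0.05 after quantile normalization and -0.01 after the correction for GC content and length, and in each setting it lay to the right of the median of all genes.

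Many members lie next to each other. With gaps of at most 500 kb between members and at least 5 members, 81 members fell into 11 clusters. The largest was on chromosome 17 from 21008903 to 22867134, with 13 members, all with the KRAB motif. All 13 had a positive log2 fold change (median 0.39), 7 with an unadjusted p under 0.05 (13.1% of all genes), and the H89 values of 10 lay above all NaCl values on the CPM scale (20.5% of all genes), or of 9 after TMM scaling (15.2%). The median was 0.26 without NaCl tumor 1, 0.23 after quantile normalization, with 12 positive, and 0.14 after the GC correction, with 10 positive. The 6 other genes tested within the same interval were positive too, with a median of 0.30.

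Zfp945 lies at the far end of this cluster and had the largest value of the 13. It stood at 4.21, 5.74 and 5.47 CPM in NaCl and 7.90, 7.87 and 10.2 CPM in H89 tumors, a log2 fold change of 0.68 (SE 0.17, edgeR adjusted p = 0.0800). Zfp944 stood at 5.16, 6.92 and 6.79 CPM and at 9.70, 9.84 and 8.93 CPM, with a log2 fold change of 0.53. In both genes the groups did not overlap and NaCl tumor 1 was the lowest. Zfp229 had the smallest value, with 8.50, 9.72 and 10.1 CPM in NaCl and 7.61, 12.1 and 11.9 CPM in H89 tumors. Its groups overlapped, since H89 tumor 1 was the lowest of all 6, and the log2 fold change was 0.09. The genes of such clusters arose by duplication and resemble each other, and how the counting split reads between copies was not tested. The estimated counts of 130 of the 228 members were over 0.01 from a whole number in some tumor, so single values within the cluster are uncertain.

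**Figure D5:**
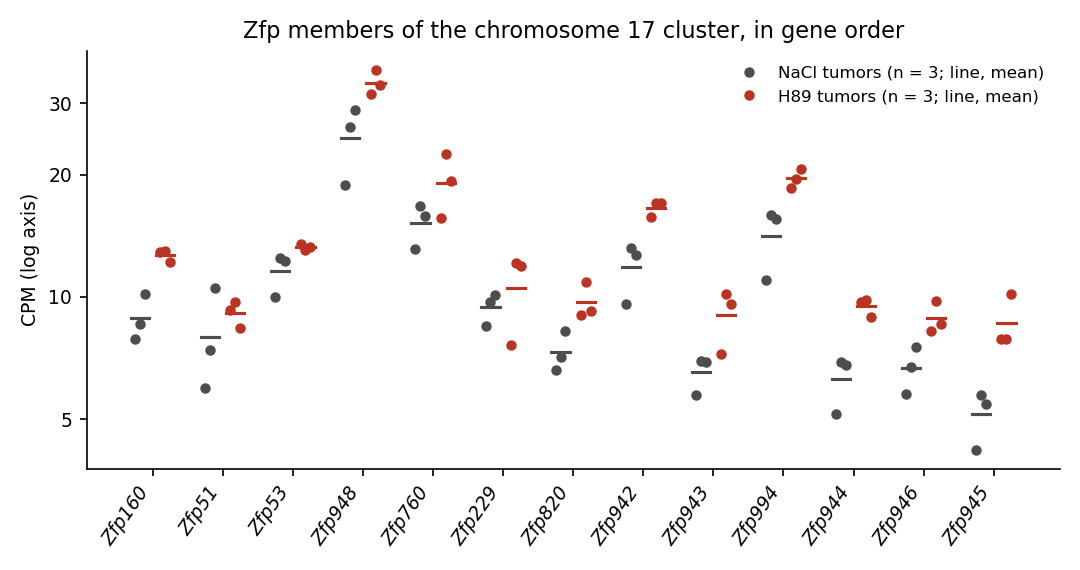
Level in CPM (vertical log axis) of the 13 members of the chromosome 17 cluster in their order along the chromosome, with 1 point per tumor, 3 NaCl and 3 H89 tumors per gene, and a line at each group mean. The H89 mean is the higher in every gene, and NaCl tumor 1, the left point of each grey triple, is the lowest NaCl value in each.

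Several start sites of this cluster share a sequence feature. Promoters from 250 bases before to 50 bases after the start were taken from RefSeq (GRCm38.p6), which matched 186 members, 12 of them in the cluster. The letters CACGTG, an E-box of the kind read by Myc, Max and Usf proteins and the same on both strands, occurred in 6 of these 12. Over all members with a promoter it was 16 (8.60%), beside 11.4% of 10375 genes tested and 8.09% of 27025 promoters. The windows of 56 bases around the 6 matches are shown to let the copies be compared, 5′ to 3′ in the direction of the gene, with the E-box in capitals.
Zfp820, chr17:21845848-21845903, minus strand: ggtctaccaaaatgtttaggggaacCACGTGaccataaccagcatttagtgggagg
Zfp942, chr17:21962488-21962543, minus strand: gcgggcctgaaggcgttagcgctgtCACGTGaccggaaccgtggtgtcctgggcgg
Zfp943, chr17:21962488-21962543, plus strand: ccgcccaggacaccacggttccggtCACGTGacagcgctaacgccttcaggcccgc
Zfp994, chr17:22225744-22225799, minus strand: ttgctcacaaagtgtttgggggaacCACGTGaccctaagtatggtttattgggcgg
Zfp944, chr17:22361399-22361454, minus strand: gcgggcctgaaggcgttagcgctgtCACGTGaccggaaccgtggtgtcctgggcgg
Zfp946, chr17:22424167-22424222, plus strand: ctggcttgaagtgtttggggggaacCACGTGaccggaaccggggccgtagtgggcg

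The windows of Zfp942 and Zfp944 were identical in 56 of 56 bases, although the genes lie apart. Zfp942 and Zfp943 start from the same stretch of DNA in opposite directions, so their windows are reverse complements of each other. Zfp820 and Zfp994 agreed in 41 of 56 bases. The levels of the divergent pair were 9.63, 13.2 and 12.7 CPM in NaCl and 15.7, 17.0 and 17.0 CPM in H89 tumors for Zfp942, and 5.75, 6.95 and 6.92 CPM and 7.25, 10.2 and 9.60 CPM for Zfp943. Both were lowest in NaCl tumor 1 and did not overlap between groups, with log2 fold changes of 0.42 and 0.39 (edgeR Benjamini-Hochberg adjusted p of 0.123 and 0.183). Over all 16 members with the E-box the median log2 fold change was 0.34, beside 0.13 over all 228 members. Over the 10 outside the cluster it was 0.22, with 8 positive, while the median of all genes tested with the letters was -0.02.

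The cAMP response element, TGACGTCA, the site of the CREB factors that PKA activates, was found in the promoters of 8 members (4.30%), beside 3.45% of genes tested and 2.03% of all promoters. The element is shown because it is the best known DNA site downstream of PKA. Of the 8 genes, 4 are shown, among them those with the largest and the only negative log2 fold change. These 4 do not stand for all 8. Their windows run from the largest to the smallest log2 fold change among them. Each holds 58 bases, 5′ to 3′ in the direction of the gene, with the element in capitals.
Zfp868, chr8:69625171-69625228, minus strand: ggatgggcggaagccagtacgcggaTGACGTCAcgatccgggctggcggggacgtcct
Zfp595, chr13:67332556-67332613, minus strand: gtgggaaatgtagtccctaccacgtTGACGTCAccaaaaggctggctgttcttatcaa
Zfp335, chr2:164911784-164911841, minus strand: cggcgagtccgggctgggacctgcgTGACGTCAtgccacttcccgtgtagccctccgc
Zfp367, chr13:64152446-64152503, minus strand: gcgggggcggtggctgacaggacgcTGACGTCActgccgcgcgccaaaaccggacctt

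Zfp868 stood at 16.3, 17.9 and 19.5 CPM in NaCl and 29.5, 29.8 and 23.9 CPM in H89 tumors, without overlap. Its log2 fold change was 0.56 (SE 0.14, edgeR adjusted p = 0.0747), the largest of the 8. Zfp367 was the only one of them with a negative value (-0.03), with 62.1, 59.9 and 66.6 CPM in NaCl and 50.6, 66.2 and 77.3 CPM in H89 tumors, which enclosed the NaCl range. On the CPM scale its H89 mean was the higher (64.7 against 62.8), opposite in sign to the TMM-scaled fit. Zfp335, a regulator of neurogenesis and T cell maturation, stood at 54.5, 53.8 and 52.6 CPM and at 78.8, 66.2 and 60.4 CPM, without overlap, and had a log2 fold change of 0.29 (edgeR adjusted p = 0.207). The remaining 5 are Zfp266, Zfp426, Zfp523, Zfp595 and Zfp874b, with log2 fold changes from 0.05 to 0.55. The largest of these is that of Zfp595, which passed the rule only through its H89 tumors. The median over the 8 was 0.13, the same as over all 228 members (0.13), beside -0.04 over all genes tested with the element. These matches describe letters in a window and say nothing of binding.

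The other 4 motifs were searched on both strands in the same windows. The first part of the cAMP element, TGACG, which also lies within the full element, occurred in 36.6% of members with a promoter, 34.3% of genes tested and 23.0% of all promoters. The letters CCAAT of NF-Y occurred in 49.5%, 43.0% and 41.1%, and CCGGAAGT of ETS factors in 11.3%, 8.78% and 4.31%. The letters GGGGCGGGG of SP1 occurred in 15.1%, 24.2% and 12.9%. The median log2 fold change of the members was 0.15 with TGACG, 0.15 with CCAAT, 0.15 with CCGGAAGT and 0.03 with GGGGCGGGG.

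The other clusters were mixed. A second cluster of that chromosome, from 32765496 to 33631779, had 7 of 7 members positive (median 0.26, median GC 40.0%), and 5 after the GC correction (median 0.19). On chromosome 13 from 67312998 to 67729173, 6 of 7 were positive (median 0.22, GC 39.5%), but 2 of 7 after the GC correction (median -0.03). These 7 include Zfp595, which passed the rule only through its H89 tumors. In contrast, on chromosome 7 from 127233061 to 127885996 only 1 of 10 members was positive (median -0.17, GC 53.8%), although 4 of the 10 have the KRAB motif. Of the 8 members between 24081924 and 25227507 of chromosome 7, which include Zfp575, 1 was positive (median -0.16, GC 54.7%). The 5 between 4915217 and 5053723, which include Zfp524, had a median of -0.26 and the highest GC content (63.5%). The cluster of chromosome 4 from 147132038 to 147848366, whose 5 KRAB members are the poorest in GC (36.0%), had a median of 0.08, with 0 at an unadjusted p under 0.05, and -0.20 after the GC correction (1 of 5 positive). Of the 4 clusters left, those on chromosome 9 (5 of 5 positive) and chromosome 7 from 12478293 to 12985714 (4 of 5) had medians of 0.18 and 0.35, the 10 members between 29768552 and 30169750 of chromosome 7 had 0.05, and the 6 on chromosome 6 had -0.09. After the GC correction these 4 medians were -0.03 (2 of 5 positive), 0.16 (4 of 5), -0.04 (3 of 10) and -0.10 (2 of 6). The 3 clusters with negative medians on chromosome 7 stayed negative, at -0.17, -0.23 and -0.11. Over all 13118 genes tested the corrected median was -0.07, with 5248 positive.

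The KRAB members with well known targets were looked at separately, and they were picked outside the rule for named genes. Zfp57, which keeps the methylation of imprinted loci, stood at 21.1, 28.7 and 29.2 CPM in NaCl and 28.7, 31.8 and 28.6 CPM in H89 tumors. Zfp809, which silences murine leukaemia retroviruses, stood at 6.98, 9.24 and 8.79 CPM and at 10.9, 9.29 and 8.86 CPM. In both, the groups overlapped, and the log2 fold changes of 0.11 (SE 0.13) and 0.15 (SE 0.17) were below their standard errors, while for both genes NaCl tumor 1 was the lowest. Zfp568, the repressor of a placental transcript of Igf2, stood at 20.8, 20.8 and 20.5 CPM in NaCl and 26.3, 26.7 and 26.8 CPM in H89 tumors. The tumors of each group were almost level and the groups did not overlap, with a log2 fold change of 0.29 (SE 0.09, edgeR adjusted p = 0.106, exact permutation p = 0.1).

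The corepressors through which KRAB proteins act were divided. Of 42 genes tested in the list of KRAB corepressor and heterochromatin genes, 23 had a positive and 19 a negative log2 fold change (median 0.01), and 2 rose after adjustment while 0 fell by edgeR (0.861% and 0.724% of all genes). At an unadjusted p under 0.05 it was 8 (19.0%) and 4 (9.52%), beside 13.1% and 11.9% of all genes. Trim28, the hub corepressor, stood at 504, 470 and 431 CPM in NaCl and 460, 428 and 428 CPM in H89 tumors, which overlapped, with a log2 fold change of -0.16 (SE 0.10, edgeR adjusted p = 0.354). Setdb1, which lays down H3K9 trimethylation, stood at 71.1, 72.9 and 70.3 CPM and at 86.7, 93.2 and 90.2 CPM, without overlap (log2 fold change 0.26, edgeR adjusted p = 0.0878). The genes that rose were Morc3, a chromatin ATPase, and Trim24, a relative of Trim28. Morc3 stood at 36.3, 42.3 and 41.9 CPM in NaCl and 59.9, 59.0 and 61.3 CPM in H89 tumors (log2 fold change 0.51, edgeR adjusted p = 0.0413). Trim24 stood at 38.0, 40.0 and 36.9 CPM and at 57.0, 51.7 and 59.3 CPM (log2 fold change 0.48, edgeR adjusted p = 0.0471). Neither overlapped between groups, and both lost the call when any 1 tumor was left out, with edgeR adjusted p from 0.0663 to 0.149. Few of all genes passed in those fits, as given for Zfp488.

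The Zfp36 family showed no change that the test could detect, although its members are among the most abundant. These CCCH proteins bind AU-rich elements and hand the mRNA to the deadenylation machinery. Zfp36 (tristetraprolin) stood at 52.0, 47.2 and 43.1 CPM in NaCl and 59.4, 50.7 and 67.9 CPM in H89 tumors, and H89 tumor 2 lay within the NaCl range. Its log2 fold change was 0.25 (SE 0.12, edgeR adjusted p = 0.254). Zfp36l1 stood at 117, 117 and 124 CPM and at 107, 126 and 145 CPM, with a log2 fold change of 0.001 whose sign depended on the setting. Zfp36l2 stood at 392, 425 and 413 CPM and at 356, 412 and 440 CPM, a log2 fold change of -0.10 (SE 0.09) that became 0.05 after quantile normalization. In both relatives the H89 tumors enclosed the NaCl range, with H89 tumor 1 lowest and H89 tumor 3 highest.

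Of 24 known AU-rich targets tested, 12 had a positive and 12 a negative log2 fold change. After adjustment by edgeR, 0 were higher and 1 lower (0.861% and 0.724% of all genes). At an unadjusted p under 0.05 it was 4 (16.7%) and 2 (8.33%), beside 13.1% and 11.9% of all genes. The gene that fell was Ier2, an immediate early gene, at 68.8, 68.9 and 73.8 CPM in NaCl and 50.4, 52.7 and 49.4 CPM in H89 tumors (log2 fold change -0.54, edgeR adjusted p = 0.0407). Of 25 deadenylation and decay factors, 13 were positive, 1 rose and 1 fell. Pan2, a catalytic subunit of a deadenylase, rose from 32.2 ± 1.08 to 47.0 ± 0.982 CPM (SD, n = 3 each; edgeR adjusted p = 0.0417), and Pabpc4, a poly(A)-binding protein, fell from 567 ± 44.6 to 388 ± 23.4 CPM (SD, n = 3 each; edgeR adjusted p = 0.0407). For these 3 genes the groups did not overlap. No call held with 1 tumor left out, where edgeR adjusted p lay between 0.0663 and 0.145 and few of all genes passed.

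Members that act on RNA, ribosomes and mitosis went both ways, with 5 of 10 positive. Zfp207 (BuGZ), which brings Bub3 to kinetochores, was the member with the highest level per transcript length, 134 CPM per kb. It stood at 173, 198 and 175 CPM in NaCl and 242, 239 and 230 CPM in H89 tumors, without overlap, and had a log2 fold change of 0.31 (SE 0.09, edgeR adjusted p = 0.0964). Zfp598, the ubiquitin ligase that senses collided ribosomes, stood at 152, 170 and 171 CPM and at 140, 148 and 145 CPM (46.1 CPM per kb). The groups did not overlap, with H89 the lower, and the log2 fold change was -0.25 (SE 0.08, edgeR adjusted p = 0.110). Zfp830 and Zfp326, both linked to mRNA splicing, had log2 fold changes of 0.33 and 0.28 without overlap, and Zfp593, a factor of ribosome assembly, had -0.32 with overlapping groups. Zfp346, which binds double-stranded RNA, was at 34.1 ± 0.891 and 37.2 ± 1.54 CPM (SD, n = 3 each). Its CPM values did not overlap between groups, and on the TMM-scaled values of the fit the log2 fold change was 0.06 (edgeR adjusted p = 0.723). DESeq2 called Zfp207 higher (Benjamini-Hochberg adjusted p = 0.0373) and Zfp598 and Zfp622 lower (0.0358 and 0.0253).

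The 5 members with the highest mean CPM were Zfp36l2, Zfp207, Zfp91, Zfp598 and Zfp706. Zfp91, a ubiquitin ligase of the alternative NF-kB pathway, stood at 189, 191 and 199 CPM in NaCl and 170, 191 and 212 CPM in H89 tumors, which overlapped (log2 fold change -0.09). Zfp706, a small protein with 1 C2H2 finger, stood at 161, 162 and 164 CPM and at 148, 141 and 137 CPM. Here the groups did not overlap, and the log2 fold change was -0.26 (SE 0.09, edgeR adjusted p = 0.125, DESeq2 adjusted p = 0.0480).

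Of the transcription regulators without KRAB whose roles are known, 16 of the 19 listed were members, and 11 of the 16 had a positive log2 fold change (median 0.15). An unadjusted p under 0.05 was reached by 2 (12.5%) on the higher and 3 (18.8%) on the lower side, beside 13.1% and 11.9% of all genes. Zfp281, a regulator of pluripotency, had the largest positive value of them and was also picked outside the rule for named genes. It stood at 25.8, 24.8 and 27.0 CPM in NaCl and 37.4, 33.5 and 43.8 CPM in H89 tumors, without overlap, with a log2 fold change of 0.49 (SE 0.11, edgeR adjusted p = 0.0630). Zfp318, known for the splicing choice between IgM and IgD in B cells, went from 19.3 ± 1.05 to 25.7 ± 2.46 CPM (SD, n = 3 each; log2 fold change 0.34, edgeR adjusted p = 0.0938). Zfp703, an oncogene of luminal breast cancer, had a log2 fold change of -0.34 (edgeR adjusted p = 0.125), and its groups overlapped. For Zfp148 the means were 60.7 ± 8.72 and 59.3 ± 7.91 CPM (SD, n = 3 each), a difference within the spread between tumors (log2 fold change -0.11, edgeR adjusted p = 0.609), but the fit corrected for GC content and length gave -0.35 with an adjusted p of 0.0430.

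At the threshold of the rule, the members just inside were Zfp775, Zfp689 and Zfp595. Zfp775 stood at 5.23, 4.88 and 5.06 CPM in NaCl and 4.38, 5.29 and 5.27 CPM in H89 tumors. Zfp689 stood at 5.30, 5.69 and 4.77 CPM and at 4.45, 5.23 and 5.11 CPM, and Zfp595 at 3.17, 4.98 and 4.20 CPM and at 7.22, 5.79 and 5.82 CPM. Zfp595 passed the rule only through its H89 tumors. Just outside were Zfp870, Zfp30 and Zfp784, with mean levels of 4.97, 4.92 and 4.92 CPM. The 108 Zfp genes from 0.5 to under 5 CPM lay further toward H89 than the members, with 90 positive and a median log2 fold change of 0.27 (0.10 after the GC correction). Of these, 0 passed edgeR's adjusted test, and their median GC content was 41.2%. An unadjusted p under 0.05 was reached by 14 (12.963%) on the higher side and 0 on the lower. The share on the higher side was thus no larger than the 13.1% of all genes tested, and was below the members' 19.7%. On the lower side 11.9% of all genes tested and 7.46% of the members reached that p. The members' median fell from 0.16 over 295 symbols with at least 2 CPM to 0.07 over 171 with at least 10 CPM. A lean toward H89 at low CPM was not particular to Zfp genes. Of all 13118 genes tested, 50.6% were positive (median 0.004), but only 45.2% of the 10464 with at least 5 CPM (median -0.03).

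Zinc finger genes under other family names were closer to an even split by sign than the members, a difference that was not tested. Of 101 tested, 48 had a positive and 53 a negative log2 fold change (median -0.00), and 3 rose and 0 fell by edgeR after adjustment (0.861% and 0.724% of all genes). At an unadjusted p under 0.05 it was 15 (14.9%) and 7 (6.93%), beside 13.1% and 11.9% of all genes. Zc3h7a, a CCCH protein that binds RNA, stood at 48.5, 60.0 and 55.4 CPM in NaCl and 104, 108 and 102 CPM in H89 tumors (log2 fold change 0.87, edgeR adjusted p = 0.0288). Zkscan3, a repressor of autophagy genes, stood at 31.7, 38.8 and 36.9 CPM and at 52.0, 56.8 and 56.1 CPM (log2 fold change 0.55, edgeR adjusted p = 0.0413). Neither gene overlapped between groups. Ikzf3 (Aiolos), a lymphocyte factor, went from 0.772 ± 0.240 to 3.50 ± 1.67 CPM (SD, n = 3 each; edgeR adjusted p = 0.0488), beside the T cell marker sums given above. Among the 11 tested members of the Klf family only 2 were positive (median -0.20), and 0 passed the adjusted test. On the lower side 3 (27.3%) had an unadjusted p under 0.05, beside 11.9% of all genes. With 1 tumor left out, where few of all genes passed, Zkscan3 and Ikzf3 lost the call in every case. The edgeR adjusted p of Zc3h7a then ranged from 0.0452 to 0.133.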

How the data were processed

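Total RNA of 6 tumors was sequenced by the authors on the BGISEQ-500 platform. The deposited table, called TPM, holds estimated counts per gene by symbol: totals per tumor run from 27067349 to 31958793. The submitters' processing notes name kallisto, DESeq2 and GRCm38, without roles or versions. Groups came from the sample labels, and 3 tumors per group, with no batch given, limit the precision. P-values measure the spread between these tumors.

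Counts were rounded to whole numbers, and 13118 genes with a mean of at least 0.5 CPM were tested with edgeR 4.0.16 (TMM, glmQLFTest, R 4.3.3) with treatment as the only term. Benjamini-Hochberg adjustment ran over all genes tested. Standard errors (SE) were taken as the size of the log2 fold change over the root of its quasi-likelihood F. CPM values printed for single tumors are per total count, without TMM scaling. Exact two-sided permutation tests used log2(CPM + 0.5). GC content, transcript length, positions and coding sequences came from GENCODE M21 by symbol (227 of 228 members). C2H2 fingers and a KRAB motif were searched in the translations. The correction for GC content and length was a loess fit (span 0.3) per tumor. The main edgeR fit was tested on simulated counts, but the GC and length correction and the DESeq2 and limma fits were not.

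Named genes are members past the adjusted test, the 6 largest log2 fold changes each way among members with an unadjusted p under 0.05, the 5 members with the highest CPM, the Zfp36 family, 3 genes on each side of the threshold, list genes past the adjusted test, Trim28 and Setdb1. Any other gene named was picked after its values were seen. The members, lists and tests were chosen with earlier results of these data known. Alternatives were other filters and normalizations, DESeq2 1.42.0, limma 3.58.1, edgeR's robust option, a replicate block, the GC correction, Bonferroni correction, other CPM limits for members and each tumor left out. Added after seeing the data were the GC correction with the block, the limit of 5 CPM in both groups and TMM-scaled CPM for the counts of groups that do not overlap.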

Additional observations from a re-analysis of the deposited data

How the results depend on the processing

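The count of members higher after Benjamini-Hochberg adjustment was 1 as reported, 2 with the robust option, with median ratio scaling or with the filter at 5 CPM (Zfp182 was the addition each time), 15 with DESeq2 and 5 with the GC and length correction. It was 0 with Bonferroni correction, with the GC correction plus replicate block, and without any 1 tumor (lowest and highest 0). Over all 13118 genes, the fits with 1 tumor left out called 0 to 11 higher and 0 to 2 lower. The count lower was 0 as reported, 9 with DESeq2 and 5 with the GC correction, and 0 without any 1 tumor. At an unadjusted p under 0.05, 25 members were higher and 31 lower with the GC correction, 21 and 30 with the block added to it, and 26 to 44 and 12 to 19 with 1 tumor left out, the lowest counts both being without H89 tumor 2. The median log2 fold change was 0.046 after quantile normalization, -0.013 with the GC correction and -0.014 with the block added, and 0.09 to 0.17 with 1 tumor left out. Cause of the differences was not tested, and the fits with 1 tumor left out also hold fewer tumors.

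The replicate numbers are not stated to pair tumors: same-numbered tumors deviated from their group means with correlations over genes of 0.16, 0.06 and -0.03. With the replicate block, 0 members passed the adjusted test (0 of all genes did), 52 were higher and 21 lower at an unadjusted p under 0.05, and the median was 0.13; Zfp488 had an edgeR adjusted p of 0.0640.

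For the named members, 296 values kept their direction and side of the threshold, 18 passed it anew, 8 (all of Zfp488) lost it and 8 changed sign. The latter were Zfp36l2 at 0.054 after quantile normalization, and Zfp36l1 at -0.012 without a filter, -0.015 with DESeq2, -0.0043 with the block, -0.080 with the GC correction, -0.084 with the block added, and -0.020 and -0.086 without NaCl tumor 2 or H89 tumor 3 (highest 0.081, without H89 tumor 1). With 3 tumors per group, unadjusted permutation p cannot go below 0.1.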
